A study of Mus musculus with 4 samples.

Results

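The library of wild-type splenic T cells from mice of 8 months differed from the other libraries of its series in T cell receptor use. It also had lower transcripts of lectin-like natural killer (NK) receptor genes and higher transcripts of some myeloid and immunoglobulin genes. Its genes were chosen from a table of 35275 genes by their own levels: a gene entered if its scaled CPM (counts scaled to the size of the library, with TMM factors between libraries) lay 2-fold or more above the highest or below the lowest of the other 3 libraries, and reached 5 CPM in 1 library or more. Of 10689 genes at that level, 219 entered, 112 higher (1.05%) and 107 lower (1.0%). Since the same values chose the genes and describe them, the levels below are a description, and no test was made. Of the higher genes 62 reached 5 CPM in wild type at 8 months alone, and 74 of the lower genes were under 5 CPM there, so that both entered through the libraries in which they are high. The 3 genes just inside the limit were Trbj2-7, Scarf1 and E130311K13Rik at 2.02, 2.02 and 2.04-fold higher and Lgalsl, Mctp2 and Rgag4 at 2.01-fold lower. Just outside lay Itgae, Igkv4-72 and Ccl22 on the higher side and 9130208D14Rik, Rhobtb1 and Ildr1 on the lower side, of which 9130208D14Rik had the smallest value at 1.98-fold.

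Each group is represented here by 1 library of splenic T cells from C57BL/6 mice. The mice were wild type and 8 months old, wild type and 2 months old, or carried a knockout of the ceramide synthase gene Cers6 at 2 or at 8 months. Ceramide synthases make ceramide, a sphingolipid, by joining a fatty acid to a sphingoid base. In every group the T cells had been activated for 3 days through CD3 and CD28 with IL-2 before total RNA was taken. The labels name no receptor transgene, and they do not say how many mice gave the RNA, how the T cells were enriched or which part of Cers6 was deleted. Wild type is the label's term: with 1 library, a rearranged receptor transgene, the growth of 1 clone and age cannot be told apart as sources of its receptor use, and the Cd4 and Klr values below carry the same limit. The library of wild type at 8 months held 21886108 counts and the others between 18145555 and 24239344. With 1 library a group, age, genotype and the single mouse or pool cannot be told apart. Intervals below are exact 95% intervals that cover counting error only.

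A T cell carries 1 dominant receptor, whose alpha and beta chains are put together from V, D, J and constant segments by recombination, so that the V segments in a mixed population reflect many clones. Most NK receptors of the lectin-like family (the Klr genes, which include the Ly49 receptors, named Klra) are encoded in the NK gene complex and are found on NK cells and on subsets of CD8 T cells with memory or innate features. CD4 and CD8 mark helper and cytotoxic T cells. S100a8 and S100a9 encode calprotectin, the abundant protein of neutrophil cytosol, and immunoglobulin segments are transcribed in B cells and, at very high levels, in plasma cells.

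The V segments that set this library apart are Trbv14 and Trav7d-5, and their germline V exons are shown because they lead the beta and alpha V counts there. Both were read from GENCODE M21 transcripts on GRCm38, plus strand, at chr6:41135320-41135616 for Trbv14 and chr14:52836100-52836387 for Trav7d-5. Capitals run from the last in-frame cysteine codon, where the junction with the following segment begins, to the end of the exon.

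Trbv14: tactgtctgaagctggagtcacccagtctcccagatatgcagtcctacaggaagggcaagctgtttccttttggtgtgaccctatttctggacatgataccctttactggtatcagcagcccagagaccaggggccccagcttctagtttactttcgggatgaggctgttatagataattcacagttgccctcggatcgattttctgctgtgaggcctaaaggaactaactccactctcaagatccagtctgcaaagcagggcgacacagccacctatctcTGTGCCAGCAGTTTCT

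Trav7d-5: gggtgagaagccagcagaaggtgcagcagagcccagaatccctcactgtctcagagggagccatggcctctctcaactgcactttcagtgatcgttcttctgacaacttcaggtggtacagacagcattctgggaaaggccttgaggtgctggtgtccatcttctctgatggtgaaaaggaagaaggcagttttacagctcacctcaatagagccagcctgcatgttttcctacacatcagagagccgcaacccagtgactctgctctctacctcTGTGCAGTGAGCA

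The coding part of Trbv14 shared at most 67.4% of aligned bases with another Trbv segment in the annotation, Trbv16. The coding part of Trav7d-5 is identical in all 337 bases to that of Trav7n-5 and differs from Trav7-5 in 14 bases. Neither copy has a row in the deposited table, and reads that fit more than 1 copy may be missing from the alpha counts, since the labels name no counting tool.

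Before the genes are described, the libraries themselves need a comparison. The same rule gave 219 genes for wild type at 8 months. It gave 9 higher (0.0842%) and 7 lower (0.0655%) for wild type at 2 months, 1 higher (0.00936%) and 73 lower (0.683%) for knockout at 2 months, and 351 higher (3.28%) and 244 lower (2.28%) for knockout at 8 months. At 4-fold, wild type at 8 months had 76, more than the 49 of knockout at 8 months, and the other libraries had 2 (wild type at 2 months) and 18 (knockout at 2 months). Knockout at 8 months thus stood apart on its own, and without it the wild type at 8 months had 166 genes higher and 116 lower. Xist, the RNA of the inactive X chromosome, measured 0.0472 CPM in wild type at 8 months, against 440.5 CPM in wild type at 2 months, 0 in knockout at 2 months and 0.171 CPM in knockout at 8 months, so that wild type at 2 months stood alone. The Y-linked gene Uty had 329 counts in wild type at 8 months, against 220 in wild type at 2 months, 463 in knockout at 2 months and 783 in knockout at 8 months. Without wild type at 2 months, 140 genes were higher and 182 lower.

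**Figure D1:**
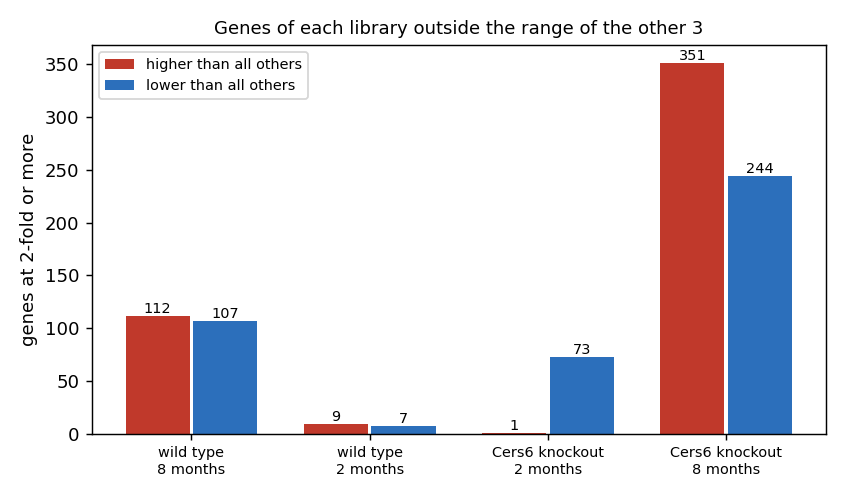
Number of genes (y axis) in each library (x axis) that lie 2-fold or more above the highest or below the lowest of the other 3 libraries, among the 10689 genes that reach 5 CPM. Wild type at 8 months has 112 and 107 genes, knockout at 8 months has 351 and 244.

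Receptor use was the largest difference by fold. Trbv14 (ENSMUSG00000076471, chromosome 6, 41135167 to 41135609 in the deposited coordinates) had 44007 counts in wild type at 8 months, against 204 in wild type at 2 months, 178 in knockout at 2 months and 219 in knockout at 8 months. That is 2077 CPM against 8.88 to 10.3 CPM in the other libraries, a ratio of 201 to the highest of them. Trbv14 took 98.6% of all Trbv counts in wild type at 8 months (interval 98.5 to 98.7), against 5.12% in wild type at 2 months, 5.14% in knockout at 2 months and 7.40% in knockout at 8 months. The effective number of Trbv segments, the inverse of the summed squared shares, was 1.03 in wild type at 8 months, against 17.5 in wild type at 2 months, 17.3 in knockout at 2 months and 17.95 in knockout at 8 months.

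The other Trbv segments were low in the same library. Of 22 segments other than Trbv14, 18 reached 5 CPM in some library, and 16 of these were past the rule as lower, where 1.0% of all genes at that level were. All 16 were under 5 CPM in wild type at 8 months, so the limit itself fixed their direction. All 22 segments together had 615 counts in wild type at 8 months, against 3780 in wild type at 2 months, 3286 in knockout at 2 months and 2741 in knockout at 8 months. Trbv15 had 1 count in wild type at 8 months and 140 to 231 in the others. Trbv4, Trbv17 and Trbv26 had 0 counts in wild type at 8 months and between 104 and 145 counts in each of the others, which puts them at least 33.9, 31.4 and 34.4-fold lower when a 0 is read as 3 counts. Trbv13-1 kept the most counts among these segments, 420 in wild type at 8 months against 175 in wild type at 2 months, 177 in knockout at 2 months and 159 in knockout at 8 months, and was not past the rule.

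**Figure D2:**
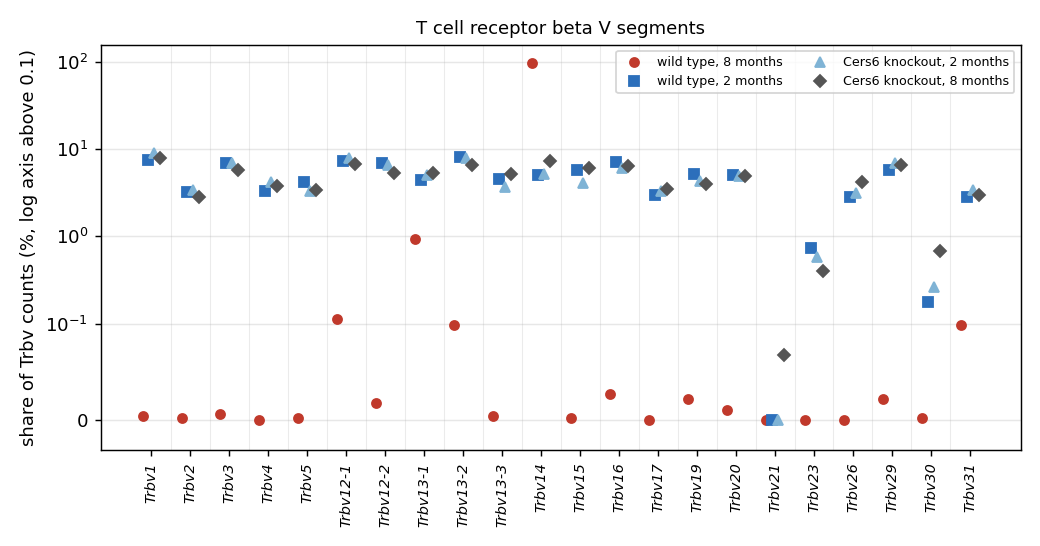
Share of all Trbv counts (y axis, percent, log scale above 0.1 and linear below) taken by each Trbv segment with a count (x axis), 1 point per library. In wild type at 8 months Trbv14 holds 98.6% and every other segment lies under 1%, while the other libraries lie close to each other.

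Of Trac, Trbc1 and Trbc2, Trbc2 alone was past the rule. Trbc2, 1 of 2 beta constant genes (chromosome 6, 41546730 to 41548181), measured 3283 CPM in wild type at 8 months, against 404.8 CPM in wild type at 2 months, 362.2 CPM in knockout at 2 months and 215.03 CPM in knockout at 8 months. The ratio to the highest of the others was 8.11 (7.94 to 8.29). Trbc1 measured 377.9 CPM in wild type at 8 months and 139 to 229 CPM in the others, below the 2-fold limit, and Trbc2 took 89.7% of Trbc counts in wild type at 8 months, against 60.7% to 65.0% in the others. Trac, the alpha constant gene, did not share this, with 153.5 CPM in wild type at 8 months and 112.5 to 164.5 CPM in the others. Per count of Trac there were 23.8 counts of Trbc1 and Trbc2 in wild type at 8 months, against 3.85 in wild type at 2 months, 3.55 in knockout at 2 months and 3.15 in knockout at 8 months. Trbv14 and Trbc2 together made up 0.519% of all counts in wild type at 8 months.

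On the alpha side the leading segment was Trav7d-5 (chromosome 14, 52835840 to 52836386), with 278 counts in wild type at 8 months, against 7 in wild type at 2 months, 8 in knockout at 2 months and 20 in knockout at 8 months. It took 35.5% of Trav counts in wild type at 8 months (32.1 to 39.0) and 0.380% to 0.993% in the others. The 100 Trav segments outside the Trav7 family summed to 464 counts in wild type at 8 months, against 1633 in wild type at 2 months, 1524 in knockout at 2 months and 1761 in knockout at 8 months. The effective number of Trav segments was 7.15 in wild type at 8 months, against 43.7 in wild type at 2 months, 43.2 in knockout at 2 months and 40.7 in knockout at 8 months. Among beta J segments Trbj1-1 stood out, with 237 counts in wild type at 8 months and 10 to 18 in the others, although Trbj counts stayed spread, at an effective number of 7.38 in wild type at 8 months and 6.67 to 8.59 in the others. The delta J segment Trdj1 was past the rule too, with 114 counts in wild type at 8 months and 8 to 22 in the others. A J segment is short, and its row can also hold reads of unrearranged transcripts.

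The coreceptors were unequal as well. Cd4 (chromosome 6) measured 24.6 CPM in wild type at 8 months, against 115 CPM in wild type at 2 months, 127 CPM in knockout at 2 months and 202 CPM in knockout at 8 months, a level 4.66-fold (4.24 to 5.12) below the lowest of them. Cd8a measured 556 CPM in wild type at 8 months and 412.01 to 536 CPM in the others, and Cd8b1 477.5 CPM in wild type at 8 months and 313 to 483 CPM in the others. Cd4 counts came to 4.43% of Cd8a counts in wild type at 8 months, against 24.8% in wild type at 2 months, 23.7% in knockout at 2 months and 49.0% in knockout at 8 months. Cd40lg, the helper cell ligand of CD40, was also past the rule, at 0.944 CPM in wild type at 8 months and 2.48 to 6.25 CPM in the others, but it reached 5 CPM in knockout at 8 months alone. In bulk RNA, fewer cells of a type and less RNA per cell cannot be told apart. None of the 12 general T cell genes was past the rule, and Cd3e measured 324 CPM in wild type at 8 months and 233 to 347 CPM in the others.

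Klr transcripts of the NK gene complex on chromosome 6 were among the lower genes, while the wider list of NK cell receptors was mixed. Of 34 genes on that list, 13 reached the CPM limit, 6 were past the rule as lower, all of them Klr genes, and 7 were not past it. The summed level of the list was 783 CPM in wild type at 8 months, against 969.7 CPM in wild type at 2 months, 1006 CPM in knockout at 2 months and 767 CPM in knockout at 8 months. Tyrobp, an adaptor of NK and myeloid receptors, had its highest level in wild type at 8 months, 16.1 CPM against 5.63 to 11.3 CPM in the others. All 7 Klr genes that reached 5 CPM in some library were past the rule as lower (of 10689 genes, 1.0% were). Except for Klrd1, those 7 were under 5 CPM in wild type at 8 months, so the limit itself fixed their direction. Of 27 Klr genes with any count, 21 had their lowest level in wild type at 8 months. Klrc1, the inhibitory receptor NKG2A, measured 0.425 CPM in wild type at 8 months, against 17.1 CPM in wild type at 2 months, 14.3 CPM in knockout at 2 months and 16.5 CPM in knockout at 8 months, which is 33.6-fold lower than the nearest (17.4 to 74.4). Klrk1, the activating receptor NKG2D, measured 4.06 CPM in wild type at 8 months and 30.7 to 34.2 CPM in the others. Klrd1, the CD94 partner chain of NKG2 receptors, measured 51.0 CPM in wild type at 8 months and 106 to 166 CPM in the others, so the deficit was smaller there, at 2.09-fold. Klre1 had 2 counts in wild type at 8 months and 48 to 137 in the others.

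The Ly49 genes had few counts or none in this library, and some were low in knockout at 8 months as well. Klra4 had 0 counts in wild type at 8 months, against 52 in wild type at 2 months, 36 in knockout at 2 months and 2 in knockout at 8 months. For Klra8 these counts were 0, 49, 43 and 5. Neither reached the CPM limit. Klra7 had 0 counts in wild type at 8 months, against 229 in wild type at 2 months, 91 in knockout at 2 months and 155 in knockout at 8 months, at least 37.3-fold lower than the nearest when 0 is read as 3 counts. Klrc2, an activating NKG2 receptor, had 0 counts in wild type at 8 months and 32 to 175 in the others, and the pseudogene Klra13-ps had 0 in wild type at 8 months and 71 to 255 in the others. In all, 11 Klr genes had 0 counts in wild type at 8 months and 10 or more in another library. There were exceptions, among them Klrg2 and Klrg1. Klrg1, a receptor of late effector cells, had 22 counts in wild type at 8 months and 3 to 14 in the others. Members of this family are similar in sequence, and the labels do not say how reads that fit several were counted. Ncr1, the defining receptor of NK cells, had 8 counts in wild type at 8 months and 4 to 12 in the others. Klrb1c, the NK1.1 antigen, had 2 counts in wild type at 8 months and 20 to 82 in the others.

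**Figure D3:**
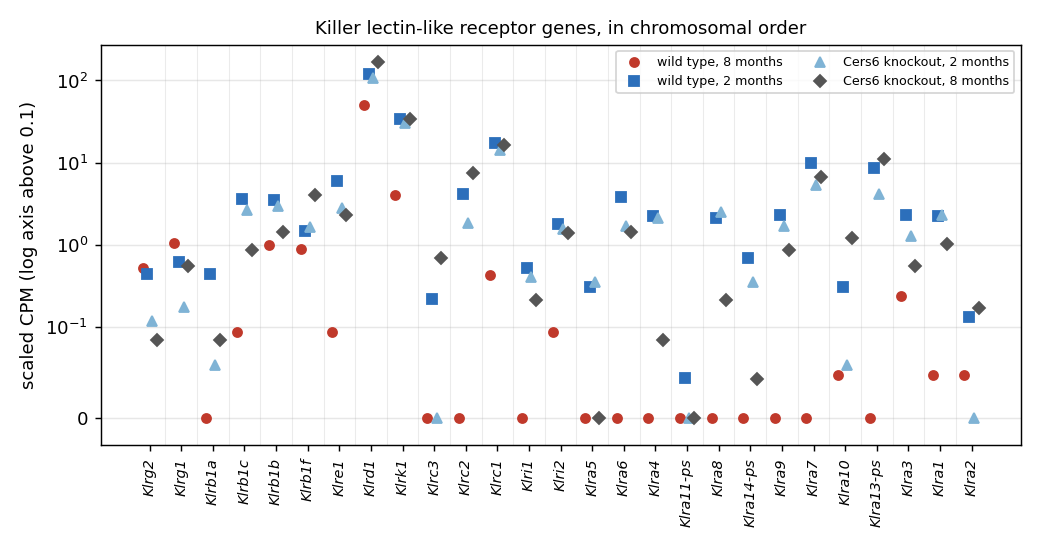
Scaled CPM (y axis, log scale above 0.1 and linear below) of the 27 Klr genes with a count in any library, in chromosomal order (x axis), 1 point per library. Wild type at 8 months is the lowest point in 21 of them, with 0 for Klra7, Klrc2 and Klra13-ps.

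Genes of cytotoxic effector cells were lower too, with fewer of them past the rule. Of 17 cytotoxic granule genes, 11 reached the CPM limit. Of these, 8 were lowest in wild type at 8 months (24.8% of all genes were) and 2 were past the rule as lower (1.0% of all genes were). These were Prf1, the pore-forming perforin, at 8.31 CPM in wild type at 8 months and 29.3 to 45.7 CPM in the others, and Fasl, the death ligand, at 0.708 CPM in wild type at 8 months and 3.54 to 8.22 CPM in the others. Gzmb, granzyme B, measured 123 CPM in wild type at 8 months, against 959 CPM in wild type at 2 months, 927 CPM in knockout at 2 months and 194 CPM in knockout at 8 months. Gzma, granzyme A, measured 23.4 CPM in wild type at 8 months, against 180.5 CPM in wild type at 2 months, 85.5 CPM in knockout at 2 months and 22.8 CPM in knockout at 8 months. Both 8-month libraries were thus below both 2-month libraries in these granzymes, and neither gene was past the rule. Without knockout at 8 months, 5 of the 17 genes were past the rule.

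Of 15 genes of naive and memory T cells, all at the CPM limit, 5 were past the rule as lower (1.0% of all genes were). None was past it as higher, and 10 were not past it. The 5 were Ly6c1, Ly6c2, Il7r and both chains of the interleukin-18 receptor. Ly6c2 and Ly6c1, surface antigens of memory CD8 T cells and monocytes, measured 14.6 and 8.64 CPM in wild type at 8 months, against 49.4 to 160 CPM and 39.3 to 51.8 CPM in the others. Il18r1 measured 9.91 CPM in wild type at 8 months and 37.7 to 57.9 CPM in the others, and Il18rap 8.68 CPM in wild type at 8 months and 36.1 to 49.9 CPM in the others. Il12rb2, a chain of the interleukin-12 receptor, measured 41.3 CPM in wild type at 8 months and 88.2 to 136 CPM in the others. Eomes, a transcription factor of cytotoxic and memory T cells, measured 4.77 CPM in wild type at 8 months and 12.7 to 22.5 CPM in the others. The related factor Tbx21 measured 40.4 CPM in wild type at 8 months and 70.1 to 100.1 CPM in the others and did not reach the limit. Among 31 T cell transcription factors, Eomes alone was past the rule as lower and Id3 alone as higher (87.2 CPM in wild type at 8 months, 34.4 to 35.0 CPM in the others), of 26 that reached the CPM limit.

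Receptors for growth and homing signals were also in the lower set. Il2ra, the high-affinity chain of the IL-2 receptor, measured 82.5 CPM in wild type at 8 months and 179 to 212 CPM in the others, and Il7r 50.6 CPM in wild type at 8 months and 105 to 136 CPM in the others. The chemokine receptor Ccr2 measured 5.66 CPM in wild type at 8 months and 12.1 to 14.6 CPM in the others. Ccr9, the receptor of gut and thymus homing, was higher instead, at 21.05 CPM in wild type at 8 months and 3.27 to 5.63 CPM in the others. Of 25 chemokine receptors and integrins, 2 were past the rule as higher (Ccr9 and Itgam).

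**Figure D4:**
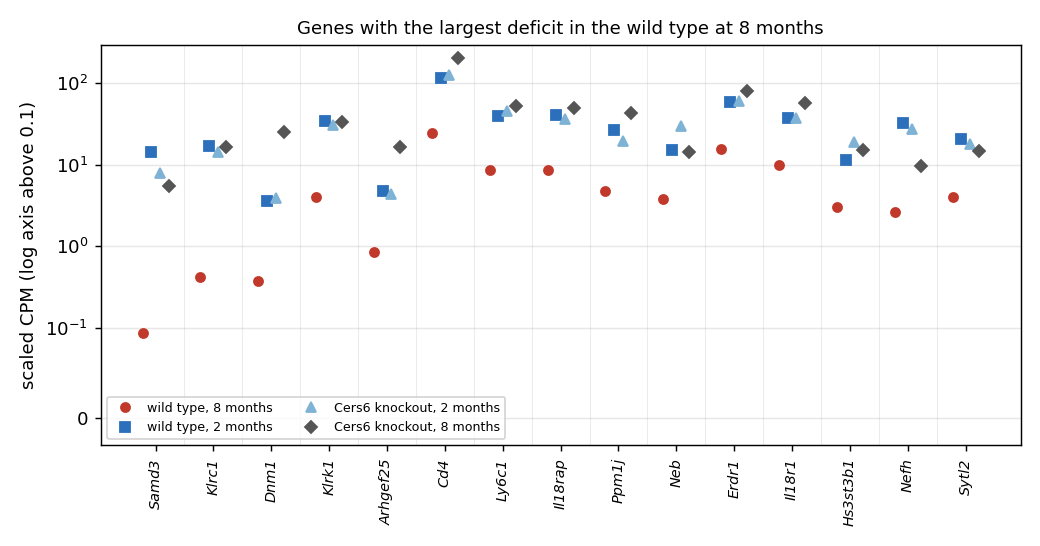
Scaled CPM (y axis, log scale above 0.1 and linear below) of the 15 annotated genes with the largest deficit in wild type at 8 months (x axis, largest first), 1 point per library. Only genes at 10 CPM or more in at least 1 library were ranked, receptor segments left out. Wild type at 8 months lies below every other library in each gene, with Cd4 at 24.6 CPM and Klrc1 at 0.425 CPM.

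Several of the lower genes are interferon-inducible GTPases. Gbp4 measured 182 CPM in wild type at 8 months and 398 to 584 CPM in the others, Gbp6 80.5 CPM in wild type at 8 months and 211 to 291 CPM in the others, and Gbp7 74.2 CPM in wild type at 8 months and 175 to 237 CPM in the others. Abcg3, Gbp4, Gbp6 and Gbp11, 4 of 6 genes at the CPM limit in their stretch of chromosome 5, were all in the lower set. Iigp1, an interferon-inducible GTPase of another family, measured 62.9 CPM in wild type at 8 months and 152 to 243 CPM in the others. Of 30 interferon-stimulated genes, 24 reached the CPM limit. Of these, 3 were past the rule as lower (Ifit3, Iigp1 and Gbp4) and none as higher, while 14 were lowest in wild type at 8 months. Of all genes at the limit, 1.0% were past the rule as lower and 24.8% were lowest there. Ifng itself had 14 counts in wild type at 8 months, against 47 in wild type at 2 months, 26 in knockout at 2 months and 108 in knockout at 8 months.

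The promoter of Gbp7 is shown because it holds 2 matches to the letters TTCNNNGAA (the GAS element bound by STAT factors, the same on both strands), which are in capitals. The stretch is RefSeq's 250 bases before the start on GRCm38.p6, chr3:142530086-142530335, plus strand.

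Gbp7: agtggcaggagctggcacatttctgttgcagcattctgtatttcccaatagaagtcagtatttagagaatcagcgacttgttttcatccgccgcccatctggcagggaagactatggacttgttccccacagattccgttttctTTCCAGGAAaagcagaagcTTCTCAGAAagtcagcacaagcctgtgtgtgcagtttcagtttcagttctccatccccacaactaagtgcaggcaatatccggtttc

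These matches lie 106 and 87 bases before the start and do not overlap. The letters occurred in the same window of 6.45% of the 62 lower genes and 7.94% of the 63 higher genes with a promoter in the table, receptor segments left out, 5.96% of 7955 promoters of genes at the CPM limit and 7.18% of 27025 promoters in all. The match is a description of the letters only.

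Among the higher genes, S100a9, Chil3, 1100001G20Rik, Mmp9 and S100a8 had the largest ratios after Trbv14, and all but 1100001G20Rik are on the list of neutrophil genes. S100a9 (chromosome 3) measured 50.7 CPM in wild type at 8 months, against 0.479 CPM in wild type at 2 months, 0.0581 CPM in knockout at 2 months and 0.813 CPM in knockout at 8 months, 62.3-fold over the highest (39.7 to 104). S100a8 measured 37.3 CPM in wild type at 8 months, against 0.261 CPM in wild type at 2 months, 0 in knockout at 2 months and 0.984 CPM in knockout at 8 months. Mmp9 and Mmp8, metalloproteases of neutrophil granules, measured 15.9 and 7.74 CPM in wild type at 8 months, against 0 to 0.385 CPM and 0 to 1.03 CPM in the others. Lcn2, an iron-withholding protein of neutrophils, measured 7.65 CPM in wild type at 8 months and 0 to 1.71 CPM in the others. Chil3, a chitinase-like protein of neutrophils and macrophages, had 141 counts in wild type at 8 months and 0 to 3 in the others. Of 22 neutrophil genes, 7 reached the CPM limit and 6 were past the rule as higher (1.05% of all genes at the limit were). All 6 reached the limit in wild type at 8 months alone, so the limit itself fixed their direction. The summed level of the whole list was 155 CPM in wild type at 8 months, against 8.67 CPM in wild type at 2 months, 3.89 CPM in knockout at 2 months and 29.1 CPM in knockout at 8 months. Ly6g, a defining neutrophil surface antigen, had 0 counts in wild type at 8 months and 1 to 3 in the others.

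The promoter of S100a9 is shown because it holds a match to TTGCNNAA (the core of the site of C/EBP factors of myeloid cells, searched on both strands), in capitals. It is again RefSeq's 250 bases before the start on GRCm38.p6, chr3:90695722-90695971, minus strand.

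S100a9: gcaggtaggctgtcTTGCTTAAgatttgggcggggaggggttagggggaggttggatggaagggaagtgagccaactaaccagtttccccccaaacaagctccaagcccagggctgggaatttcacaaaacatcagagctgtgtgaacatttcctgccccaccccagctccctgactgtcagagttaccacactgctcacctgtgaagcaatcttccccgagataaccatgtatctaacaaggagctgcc

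The match starts 236 bases before the start. The letters occurred in the same window of 17.5% of the 63 higher genes with a promoter in the table, receptor segments left out, 8.06% of the 62 lower genes, 7.34% of 7955 promoters of genes at the CPM limit and 9.55% of 27025 promoters in all. The promoter of S100a8 held none, and that of the lower gene Klrc1 held 1.

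Genes of monocytes and macrophages made up a larger group, whose list shares Chil3 with the neutrophil list. Of 34, 18 reached the CPM limit, and 12 were past the rule as higher (1.05% of all genes were) and none as lower. Of the 12, 10 reached the limit in wild type at 8 months alone, so the limit itself fixed the direction of those 10. Lyz2, the lysozyme of myeloid cells, measured 44.5 CPM in wild type at 8 months, against 1.48 CPM in wild type at 2 months, 1.22 CPM in knockout at 2 months and 3.89 CPM in knockout at 8 months. Il1rn, the interleukin-1 receptor antagonist, was 8.30-fold over the highest of the others (6.72 to 10.3) and Gpnmb, a glycoprotein of macrophages, 5.78-fold (4.86 to 6.91). Clec4n, Clec4d and Clec4e, which encode the myeloid lectin receptors dectin-2, MCL and Mincle, lie side by side on chromosome 6 with no other gene at the CPM limit between them. They measured 19.2, 13.0 and 20.3 CPM in wild type at 8 months and at most 1.18, 1.20 and 4.37 CPM in the others. Csf1r, the receptor of macrophage colony-stimulating factor, measured 7.41 CPM in wild type at 8 months and 0.639 to 2.13 CPM in the others, and Apoe, a lipid carrier made by macrophages, 89.6 CPM in wild type at 8 months and 33.7 to 41.0 CPM in the others. Other defining macrophage genes stayed near 0, as Fcgr1 had 3 counts in wild type at 8 months and 0 to 3 in the others, and C1qa had 5 counts in wild type at 8 months and 0 to 2 in the others.

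Some basophil and mast cell genes and some chemokines were higher with them. Of 22 mast cell, basophil and eosinophil genes, 6 reached the CPM limit and 4 were past the rule as higher. Of all genes at the limit 1.05% were. All 4 reached the limit in wild type at 8 months alone, so the limit itself fixed their direction. Mcpt8, a protease of basophils, measured 16.9 CPM in wild type at 8 months, against 1.31 CPM in wild type at 2 months, 0.697 CPM in knockout at 2 months and 2.95 CPM in knockout at 8 months. Prss34, another basophil protease, measured 9.96 CPM in wild type at 8 months and 0.0581 to 3.77 CPM in the others, and Hdc, the enzyme that makes histamine, 12.2 CPM in wild type at 8 months and 1.84 to 2.39 CPM in the others. Of 21 chemokines, 11 reached the CPM limit. Past the rule as higher were Ccl6, Ccl9, Cxcl2, Cxcl3 and Cxcl16, and none was lower. For 4 of these 5 the limit was reached in wild type at 8 months alone, which fixed their direction. Of the 11, 2 had their lowest level in wild type at 8 months. Ccl9 measured 21.7 CPM in wild type at 8 months and 0.697 to 3.55 CPM in the others. Among the 21 T cell cytokines 7 reached the CPM limit and none was past the rule in either direction. Outside these lists, Lifr, the receptor of leukemia inhibitory factor, measured 23.8 CPM in wild type at 8 months and 0.871 to 1.75 CPM in the others.

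**Figure D5:**
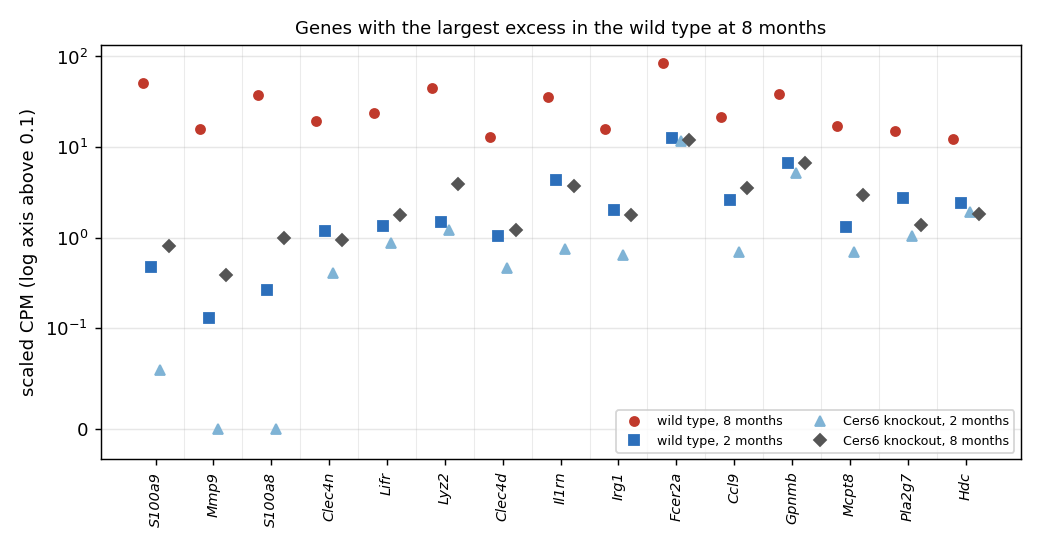
Scaled CPM (y axis, log scale above 0.1 and linear below) of the 15 annotated genes with the largest excess in wild type at 8 months, receptor segments left out (x axis, largest first), 1 point per library. Only genes at 10 CPM or more in at least 1 library were ranked. Wild type at 8 months lies above every other library in each gene, from 12.2 CPM for Hdc to 84.9 CPM for Fcer2a.

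Several immunoglobulin constant genes and several V segments were higher. The summed Ighv level was not, at 585 CPM in wild type at 8 months, against 342 CPM in wild type at 2 months, 429 CPM in knockout at 2 months and 586 CPM in knockout at 8 months. The summed Igkv level was 853 CPM in wild type at 8 months and 427 to 669 CPM in the others. Igkc, the kappa constant gene, was past the rule as higher, at 1645 CPM in wild type at 8 months and 559 to 732 CPM in the others. Igha, the constant gene of IgA, measured 268 CPM in wild type at 8 months, against 21.8 CPM in wild type at 2 months, 22.8 CPM in knockout at 2 months and 18.4 CPM in knockout at 8 months. Ighg2b, Ighg1 and Ighg2c were past the rule as higher, at 90.7, 28.9 and 136 CPM in wild type at 8 months and at most 22.8, 7.95 and 57.7 CPM in the others, while Ighm measured 4173 CPM in wild type at 8 months and 2264 to 2509 CPM in the others and was not past it. Igkv10-94 took 12.3% of Igkv counts in wild type at 8 months (11.8 to 12.8), against 1.06% to 1.90% in the others. Ighv1-82 took 14.2% of Ighv counts in wild type at 8 months (13.6 to 14.9), against 3.63% to 4.60% in the others. The effective number of Ighv segments was 26.8 in wild type at 8 months and 41.8 to 47.5 in the others, and that of Igkv segments 27.8 in wild type at 8 months and 29.9 to 37.5 in the others.

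B cell genes were present in every library. Fcer2a, the low-affinity IgE receptor CD23, was the only 1 of 20 B cell genes past the rule, at 84.9 CPM in wild type at 8 months, against 12.7 CPM in wild type at 2 months, 11.8 CPM in knockout at 2 months and 12.1 CPM in knockout at 8 months. Of the same list 19 were highest in wild type at 8 months, where 23.6% of all genes were, and the summed level was 15234 CPM in wild type at 8 months, against 9482 CPM in wild type at 2 months, 7806 CPM in knockout at 2 months and 6079 CPM in knockout at 8 months. Of 8 plasma cell genes outside the immunoglobulin loci, 7 reached the CPM limit, none was past the rule, 3 were highest and 2 lowest in wild type at 8 months. Among them Sdc1 measured 10.7 CPM in wild type at 8 months and 9.12 to 11.6 CPM in the others, and Derl3 13.5 CPM in wild type at 8 months and 8.65 to 18.9 CPM in the others. Wild type at 8 months also had the highest summed level of the neutrophil, monocyte, basophil and B cell lists. The part that RNA of these other cells has in the lower levels of T cell genes was not tested.

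Cers6, the gene deleted in the knockout, was itself in the higher set. It measured 32.0 CPM in wild type at 8 months, against 13.1 CPM in wild type at 2 months, 9.17 CPM in knockout at 2 months and 3.38 CPM in knockout at 8 months. The ratio to wild type at 2 months, the highest of the others, was 2.44 (2.13 to 2.81). Of the other 5 ceramide synthases none was past the rule, and Cers4 was lowest in wild type at 8 months (20.6 CPM, against 29.3 to 43.5 CPM in the others).

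Some features of the genes, such as type, position and length, did not choose them. Of the 112 higher genes 24 were antigen receptor or immunoglobulin segments, as were 16 of the 107 lower genes. The share of such segments among all genes at the limit is not given here, so these counts are a description only. Chromosome 6, which carries the beta receptor locus, the kappa light chain locus and the NK gene complex, held 20 of the higher and 26 of the lower genes, with 5.42% of all genes at the CPM limit. With segments left out it held 6 of 88 higher and 10 of 91 lower genes, fewer of the lower than chromosomes 9 (11) and 11 (12). The run of Klre1, Klrd1, Klrk1, Klrc2 and Klrc1 took in all 5 genes at the CPM limit in its stretch of chromosome 6. Deposited gene length had a median of 1894.5 bases in the higher genes and 2989 bases in the lower genes, against 3109 bases in all genes at the limit. In the authors' deposited table, adjusted p-values under 0.05 in both contrasts of this library were found for 65 of the 112 higher genes and 53 of the 107 lower genes, the contrasts being that with wild type at 2 months and that with knockout at 8 months, in matching directions, against 0.608% and 0.515% of all genes at the limit. Both contrasts share this library and also the values that chose the genes, so they add no independent support.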

How the data were processed

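Counts of reads per gene for 4 libraries of activated splenic T cells were taken as deposited, 1 library per group. Per the submitters' processing notes the authors used CASAVA and STAR with the builds GRCm38 and mm10. No source used here gives versions, a counting tool, an annotation or strandedness. The deposited FPKM values equal counts per deposited gene length and library total within 1e-06 in all 35275 genes and served only as an alternative for segment shares and not as levels. The log2 fold changes and adjusted p-values that the authors deposited for their contrasts were used only to count genes.

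Symbols that had turned into dates (27) were restored by gene identifier. Scaled CPM used TMM factors (edgeR 4.0.16, R 4.3.3) over all genes with a count, 0.968 for wild type at 8 months, 0.947 for wild type at 2 months, 0.949 for knockout at 2 months and 1.15 for knockout at 8 months. For fold bounds and for the ratios of named genes under the alternatives, a count of 0 was read as 3 counts. These equal 0.128 to 0.174 CPM. The choice of genes, the levels and the sums used 0 itself. With 1 library per group no test was made. Ratios carry exact conditional binomial intervals and shares exact Clopper-Pearson intervals (scipy 1.17.1). PCR reads without molecular identifiers are not independent molecules, so both cover counting error only. The selection was checked on simulated counts that held counting error only, with changed genes set above the CPM limit. That check cannot speak to spread between mice or to genes of low count.

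The members, the gene lists and the alternatives were chosen with earlier results of these data known. Of 437 list entries 431 were found. Genes were named by rule: the 15 higher and 15 lower with the largest ratio among annotated genes at 10 CPM or more (shown in the plots), list members past the rule, segments with a large share, and coreceptors, constant genes and ceramide synthases. Trbv13-1, Trbv15, Trdj1, Tyrobp, 1100001G20Rik, Tbx21, Gzma, Gzmb, Ncr1, Klra4, Klra8, Klrb1c, Klrg1, Klrg2, Fcgr1, Ifng, Ly6g, C1qa, Sdc1, Derl3, Ighm, Il12rb2, Gbp6 and Gbp7 were named after their values were seen. Alternatives were other scalings, CPM limits, folds, a prior count, the mean of the other libraries, each other library left out, removal of a gene length trend and removal of segments and predicted models. Some genes are not reported here.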

Additional observations from a re-analysis of the deposited data

How the results depend on the processing

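With library size alone, median-of-ratios factors, TMM without segments, a prior count of 2 or a gene length trend removed, the higher genes numbered 96 to 113 and the lower 103 to 116, against 112 and 107. Of these, 95 and 101 were shared with library size alone, and 89 and 98 with the length trend removed. A limit of 1 CPM gave 304 higher and 316 lower, and no limit 2143 and 911. A limit of 10 CPM gave 79 higher and 69 lower, a 4-fold rule 44 higher and 32 lower, and the mean of the other libraries in place of the nearest 185 higher and 340 lower. Where the counting interval had to lie beyond 2-fold, 86 higher and 65 lower genes were left. With each other library left out the counts were 125 to 166 higher and 116 to 182 lower, the last without wild type at 2 months, where fewer libraries alone make the rule easier to pass. Knockout at 8 months had more genes past the same rule than wild type at 8 months in the settings with 4 libraries, except at 4-fold and with no CPM limit. Of 624 values of 78 named genes under 8 alternatives, 60 left the counting interval and 0 changed sign, and 22 of the 60 came without knockout at 8 months. No paired analysis was possible because each group holds 1 library and the labels give no replicate numbers. Depth limits the lowest genes: Klr genes past the rule numbered 7 at 5 CPM, 4 at 10 CPM and 15 at 1 CPM.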

Other observations

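Ciita, Cd83, Il4i1 and Fscn1 were also in the higher set, and Fscn1 was the only 1 of 13 dendritic cell genes past the rule, of 6 at the CPM limit. Ciita, the master regulator of MHC class II genes, measured 116 CPM in wild type at 8 months, against 43.0 CPM in wild type at 2 months, 48.6 CPM in knockout at 2 months and 42.8 CPM in knockout at 8 months. Cd83, a surface protein of activated B cells and dendritic cells, measured 400.4 CPM in wild type at 8 months and 135 to 181 CPM in the others. Il4i1, an amino acid oxidase of antigen-presenting cells, measured 248 CPM in wild type at 8 months and 27.5 to 87.3 CPM in the others, and Fscn1, an actin-bundling protein of mature dendritic cells, 38.7 CPM in wild type at 8 months and 6.79 to 13.4 CPM in the others.

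Some lower genes have no known place among T cell subsets that was used here. Samd3 had 2 counts in wild type at 8 months and 127 to 333 in the others. Nefh, a neurofilament chain, measured 2.60 CPM in wild type at 8 months, against 32.2 CPM in wild type at 2 months, 27.4 CPM in knockout at 2 months and 9.54 CPM in knockout at 8 months. Dnm1, a dynamin, measured 0.378 CPM in wild type at 8 months, against 3.61 CPM in wild type at 2 months, 3.95 CPM in knockout at 2 months and 25.5 CPM in knockout at 8 months. These genes were named after their values were seen, apart from those among the largest ratios.

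Most other lists held few of these genes. Havcr2, the inhibitory receptor TIM-3, was the only 1 of 13 inhibitory receptors past the rule, at 1.79 CPM in wild type at 8 months and 3.72 to 7.66 CPM in the others. Il2ra was the only 1 of 9 regulatory T cell genes past it and Thbs1, which encodes thrombospondin, the only 1 of 12 stromal and endothelial genes, at 33.8 CPM in wild type at 8 months and 0.871 to 10.8 CPM in the others. Of 15 plasma cell genes, 5 were past the rule as higher (1.05% of all genes at the limit were), all of them immunoglobulin constant genes. None of the platelet, erythroid, sex-linked or cell division genes was past it, nor any of the gamma delta T cell genes, of which 3 of 7 entries were found and 2 reached the limit. Erdr1 measured 15.5 CPM in wild type at 8 months and 59.3 to 79.6 CPM in the others, and the deposited table places it on chromosome Y.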
